A study of Homo sapiens with 4 samples.

Results

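Genes of the protease inhibitor families were compared between WT cells and ZCCHC4 KO1 cells by RNA sequencing. The genes were chosen by name from the table of gene expression. They comprised the serpins, the Kazal-type inhibitors (SPINK), the Kunitz-type inhibitors (SPINT and TFPI), the tissue inhibitors of metalloproteinases (TIMP) with RECK, the cystatins of types 1 and 2, the whey acidic protein (WAP) group with SLPI and PI3, the alpha-2-macroglobulins and CAST. Of 16658 genes in the table, 52 carried such a name, among 96 RefSeq names that fit the rule. All 4 libraries came from cells labelled HepG2, a line established from a human liver tumor, left untreated. The WT group was of wildtype genotype and the other group was a single knockout line, ZCCHC4 KO1, in which ZCCHC4 had been disrupted with CRISPR/Cas9, and each group had 2 libraries. Nothing in the labels says whether the repetitions were separate cultures, so p-values measure the spread between these libraries, which may be technical. With a single knockout line, loss of ZCCHC4 cannot be told apart from other differences between that line and WT cells.

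Proteases cut other proteins, and cells keep them in check with dedicated inhibitors. Serpins, Kazal and Kunitz inhibitors block serine proteases such as trypsin, plasmin and the kallikreins. Serpins do so by trapping the enzyme in a covalent complex, whereas Kazal, Kunitz and WAP domains act as tight plugs of the active site. Cystatins block the cysteine cathepsins, calpastatin blocks calpains, and TIMPs block the metalloproteinases that remodel the matrix around cells. The liver is the main source of the serpins of blood plasma, among them alpha-1-antitrypsin and antithrombin. Some members of the serpin family have lost the inhibitory function and serve as chaperones or hormone carriers.

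Values are FPKM, that is, fragments scaled to transcript length and to the mapped total of the library, so levels of different genes can be set side by side. Testing was limited to genes that reached 1 FPKM in 2 or more libraries, and differences were tested with limma on log2(FPKM + 1), adjusted over all 10726 genes tested. A gene was called where the adjusted p was below 0.05. On that scale the change of genes with low values is understated. ZCCHC4 itself was measured at 7.22 and 5.44 FPKM in the WT libraries, against 1.08 and 2.29 in ZCCHC4 KO1, so that its log2 fold change was -1.48 (standard error, SE, 0.287, adjusted p = 0.0448 from limma). Without ZCCHC4 KO1 replicate 1 its adjusted p was 0.0514. FPKM summed to between 512417 and 565198.6 per library, and the number of reads is unknown. The WT and ZCCHC4 KO1 libraries each differed within the group along the GC content of transcripts, with Spearman correlations across genes of 0.706 and -0.764 between GC content and the difference of replicate 2 from replicate 1. Markers of hepatocytes were scarce. Of 26 such genes, 17 were in the table, 1 had 1 FPKM or more in both WT libraries, and AFP was at 0 and 0.05 in WT, against 0 in both ZCCHC4 KO1 libraries. ALB, APOA1 and TTR were among those not listed. Whether the cells were of the labelled line was not tested.

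The inhibitor genes that passed the test were all lower in ZCCHC4 KO1 cells. Of the 52 genes, 23 were tested, of which 8 were called lower and 0 higher, while 15 did not pass. These 8 were SPINK6, SPINK13, WFDC1, SERPINB5, TIMP3, SERPINE2, TIMP1 and SERPINB8. Among all genes tested, 4.48 percent were called lower and 1.5 percent higher. A fold change of at least 2, where also required, was met by 7 of the 8, beside 3.25 percent of all genes lower and 0.932 percent higher. At the thresholds of the study, an adjusted p below 0.001 with that fold, SPINK6 alone remained, beside 0.0559 percent of all genes lower and 0.0186 percent higher. The fold was taken on the log2(FPKM + 1) scale, where SERPINB8 missed it though its mean FPKM was 2.20-fold lower. The study names no test, so these are not its own calls. For 17 of the 23 genes both ZCCHC4 KO1 libraries lay below both WT libraries, and for 3 they lay above, which was so for 28.5 and 23.1 percent of all genes tested. The median log2 fold change was -0.83 over the 23 inhibitor genes and -0.03 over all genes tested, and at an unadjusted p under 0.05 there were 15 inhibitor genes lower and 2 higher, beside 13.9 and 8.96 percent of all genes. SPINK6, SPINK13 and WFDC1 reached an FPKM of 1 only in WT libraries and SERPINB9 only in ZCCHC4 KO1 libraries, so these genes entered the test through the group in which they were high. Of the other 19, 5 were called lower, beside 3.45 percent of the 10410 genes with 1 FPKM or more in at least 1 library of each group. With FPKM rescaled by median ratios, 13 inhibitor genes were lower and 2 higher, beside 7.05 and 3.93 percent of all genes. With the GC trend removed the counts were also 13 and 2, beside 12.7 and 7.35 percent, and with quantile normalization 11 and 2, beside 6.72 and 4.34 percent. The 8 genes were called under each of these settings. RNA was taken from whole cultures, in which fewer cells of a type and less RNA per cell cannot be told apart. Summed over 8 fibroblast markers in the table, FPKM was 34.33 and 29.49 in WT, against 11.36 and 14.3 in ZCCHC4 KO1, and 5 of the 8 had at least 1 FPKM in both WT libraries. Both ZCCHC4 KO1 libraries lay below both WT libraries for 5 of the 8, namely COL3A1, COL1A1, FAP, PDGFRB and DCN. COL3A1, the highest, was at 15.44 and 14.76 in WT, against 5.54 and 6.75 in ZCCHC4 KO1, and DCN was at 0.91 and 0.82, against 0 in both. LUM and THY1 overlapped between the groups, and COL1A2 was at 0 in WT and at 0.01 in both ZCCHC4 KO1 libraries. The sums over endothelial and leukocyte markers ran from 0.35 to 0.92 and from 12.77 to 17.89, the latter mostly CD68. Whether the labelled line itself expressed these markers or the libraries held other cells was not tested. Nor was any part of such cells in the results.

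**Figure D1:**
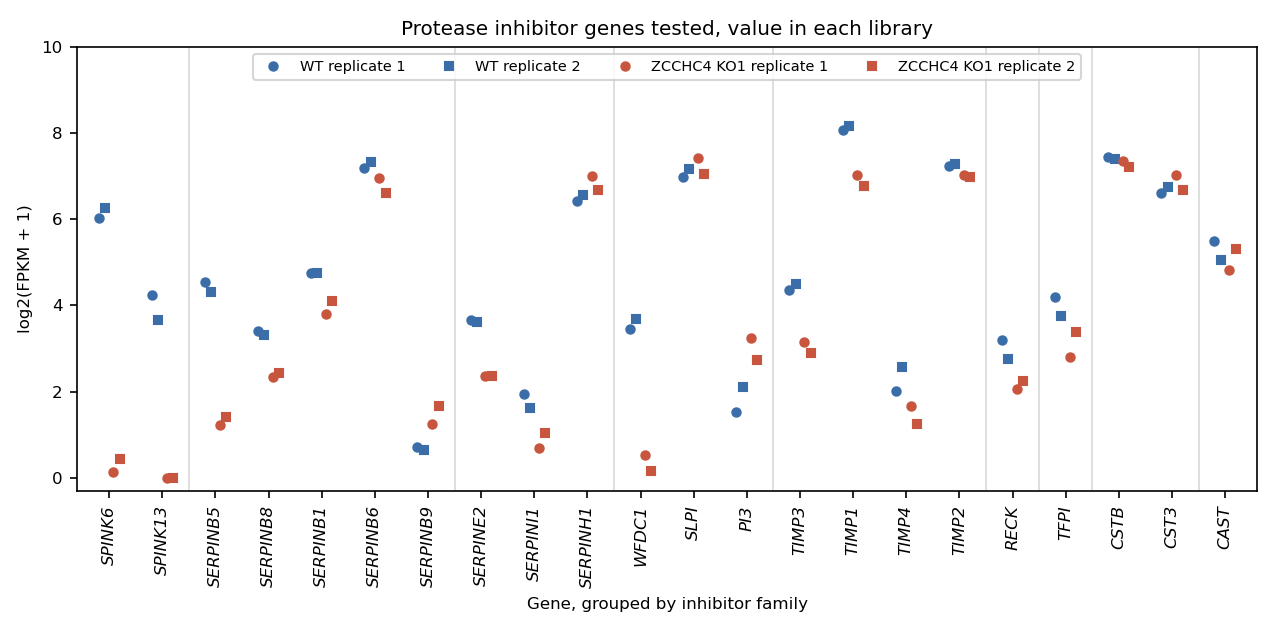
Values of 22 of the 23 tested protease inhibitor genes on the vertical axis as log2(FPKM + 1), in 2 WT libraries (blue) and 2 ZCCHC4 KO1 libraries (red), with circles for replicate 1 and squares for replicate 2. SPINK6, SPINK13 and WFDC1 lie near 0 in both ZCCHC4 KO1 libraries, whereas SLPI, CST3 and CSTB lie above 6 in all 4 libraries.

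The Kazal-type genes SPINK6 and SPINK13 showed the largest falls among the inhibitor genes. They lie near each other on the long arm of chromosome 5, with starts 66 kb apart. The stretches of 250 bases before their annotated starts are shown because these 2 genes fell together, with those of SERPINB5 and SERPINB8, a pair of called serpins on chromosome 18, for comparison. Capitals mark 4 motifs, each searched on both strands. They are TGANTCA (a pattern wider than the AP-1 site TGAGTCA that it includes), TATAAA (the TATA box), CACCTG (an E-box) and GGGCGG (a GC box). The sequences are those of RefSeq on GRCh38.p14, plus strand, from chr5:148202528-148202777 for SPINK6, chr5:148268544-148268793 for SPINK13, chr18:63476708-63476957 for SERPINB5 and chr18:63969831-63970080 for SERPINB8.
SPINK6: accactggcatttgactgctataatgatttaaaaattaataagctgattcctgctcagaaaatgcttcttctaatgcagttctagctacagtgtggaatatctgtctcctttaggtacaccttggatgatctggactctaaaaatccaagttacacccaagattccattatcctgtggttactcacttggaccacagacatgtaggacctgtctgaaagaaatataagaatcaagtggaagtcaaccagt
SPINK13: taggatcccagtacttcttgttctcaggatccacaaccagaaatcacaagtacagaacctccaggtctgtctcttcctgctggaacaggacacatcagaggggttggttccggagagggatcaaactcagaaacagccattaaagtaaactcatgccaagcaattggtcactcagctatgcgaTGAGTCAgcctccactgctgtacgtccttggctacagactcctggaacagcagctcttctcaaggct
SERPINB5: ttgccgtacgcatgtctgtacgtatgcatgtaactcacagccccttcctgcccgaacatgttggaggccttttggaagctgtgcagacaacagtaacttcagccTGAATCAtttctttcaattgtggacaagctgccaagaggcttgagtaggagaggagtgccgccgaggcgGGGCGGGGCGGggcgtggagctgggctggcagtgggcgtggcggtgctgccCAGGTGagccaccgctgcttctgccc
SERPINB8: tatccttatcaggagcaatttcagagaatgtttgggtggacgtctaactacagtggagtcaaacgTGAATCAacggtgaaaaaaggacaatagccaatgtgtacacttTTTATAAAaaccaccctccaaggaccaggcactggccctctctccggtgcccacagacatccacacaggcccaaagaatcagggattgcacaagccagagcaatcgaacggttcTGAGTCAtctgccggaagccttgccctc
The window of SPINK6 held none of the 4 motifs. SPINK13 held TGANTCA at -67, SERPINB5 at -146 and SERPINB8 at -185 and -28, counted from the annotated start to the first base of the match. The match in SERPINB5 and that at -185 in SERPINB8 read TGAATCA and so are not AP-1 sites. Those in SPINK13 and at -28 in SERPINB8 read TGAGTCA. In SERPINB8, a TATAAA on either strand overlaps the other. Of 17 tested inhibitor genes with a promoter sequence, 4 held TGANTCA, namely these 3 and CAST, which was not called. That motif was in 6.57 percent of 35116 promoter windows of the same length, TATAAA in 10.7 percent, CACCTG in 17.5 percent and GGGCGG in 42.6 percent. GGGCGG was in 11 of the 17, TATAAA in 2 and CACCTG in 2.

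SPINK6 encodes an inhibitor of the kallikrein-related peptidases of skin. It stood at 64.24 and 75.98 FPKM in the WT libraries and at 0.09 and 0.36 in the ZCCHC4 KO1 libraries. The gene thus went from the 8th highest of the 52 inhibitor genes to the 26th, with a log2 fold change of -5.86 (SE 0.211, adjusted p = 0.000523 from limma). SPINK13, a less studied Kazal-type gene, stood at 18.02 and 11.72 in WT but was listed at 0 in both ZCCHC4 KO1 libraries. Its log2 fold change was -3.96 (SE 0.25, adjusted p = 0.00297 from limma). A pseudocount of 0.1 gave log2 fold changes of -7.89 and -7.19, and each gene remained called in the 4 comparisons that left out 1 library.

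The remaining Kazal-type genes were low in every library. SPINK1, the trypsin inhibitor of pancreatic juice, was at 1.06 and 0.87 in WT, against 0.51 and 0.44 in ZCCHC4 KO1, below the limit for testing. SPINK7 was at 0.1 and 0.19 in WT, against 0 in both ZCCHC4 KO1 libraries. SPINK5, a large inhibitor of skin kallikreins, was at 0.2 and 0.14 in WT, against 0.12 and 0.28 in ZCCHC4 KO1, so its groups overlapped. SPINK4, SPINK8 and SPINK9 stayed at or below 0.3. Summed over the 8 Kazal-type genes, FPKM was 86.5 ± 3.5 in WT and 0.99 ± 0.283 in ZCCHC4 KO1 (SD, n = 2 each), a log2 ratio of -6.45. SPINK6 and SPINK13 made up nearly all of the WT sum.

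The span of 515.3 kb from SPINK1 to SPINK9 holds other genes whose values fell. The table lists 9 genes there, of which 5 were tested and 4 called lower. Besides SPINK6 and SPINK13 these were SCGB3A2, which encodes a secretoglobin, at 7.9 and 6.83 in WT, against 2.7 and 0.95 in ZCCHC4 KO1, and C5orf46, at 3.68 and 3.47 in WT, against 0.14 and 0.01 in ZCCHC4 KO1 (adjusted p = 0.0499 and 0.00588 from limma). MARCOL, which starts between SPINK6 and SPINK13, was at 2.94 and 1.02 in WT, against 0.04 and 0.02 in ZCCHC4 KO1 but did not pass (adjusted p = 0.0625 from limma). C5orf46 and MARCOL, like SPINK6 and SPINK13, reached an FPKM of 1 only in WT libraries, so that 4 of the 5 could enter the test only with a lower value in ZCCHC4 KO1, and the count says nothing of the span as a whole. The annotation also places a noncoding gene, FBXO38-DT, across SPINK6 and SPINK13 on the opposite strand, and whether the counting used strand is not given in the sources used here.

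**Figure D2:**
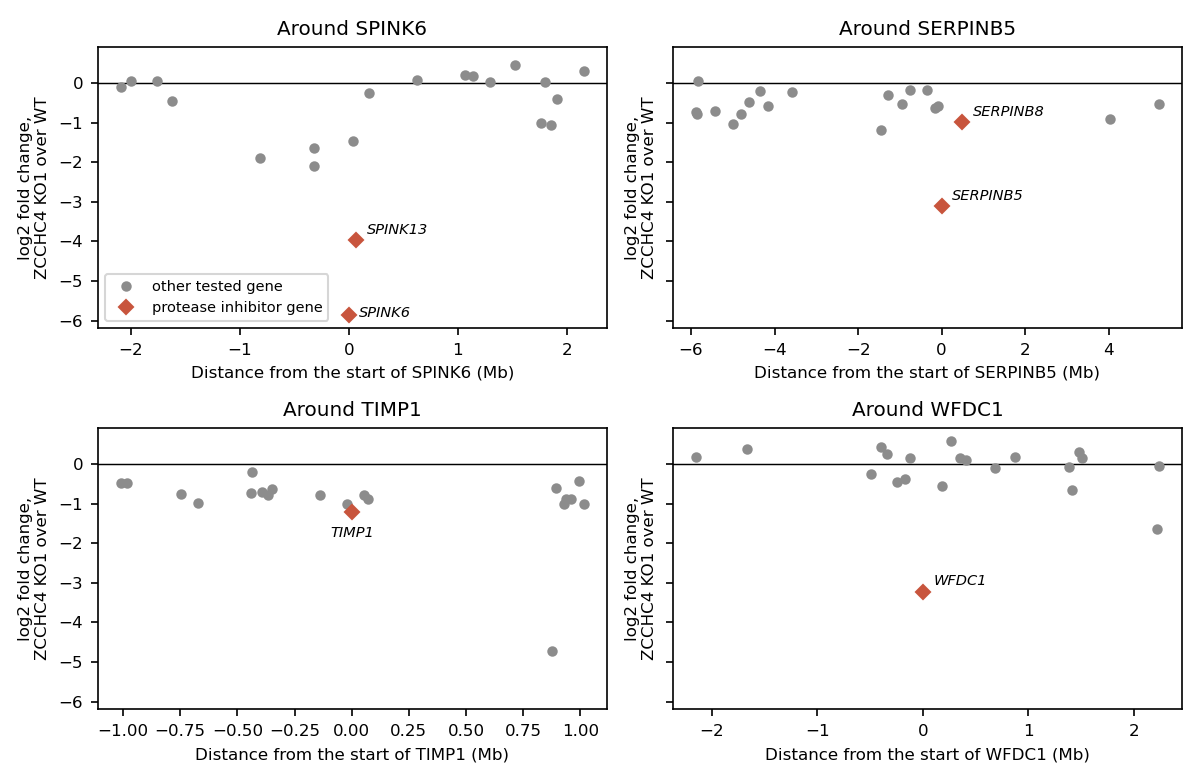
Log2 fold change of ZCCHC4 KO1 over WT (vertical axis) for the 20 tested genes nearest to SPINK6, SERPINB5, TIMP1 and WFDC1, by distance of their starts in Mb (horizontal axis), with protease inhibitor genes as red diamonds. All 20 neighbours of TIMP1 and 19 of 20 neighbours of SERPINB5 lie below 0, whereas the neighbours of WFDC1 lie on both sides of 0 with a median of 0.12.

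Serpins of clade B, which act inside cells, held a pair of called genes. Of 10 listed clade B genes, 5 were tested, and SERPINB5 and SERPINB8 were called lower. The sum over the clade was 209.7 ± 6.43 FPKM in WT, against 132.4 ± 14.8 in ZCCHC4 KO1 (SD, n = 2 each). SERPINB5 encodes maspin, a serpin without inhibitory activity that is made by epithelial cells. It was at 22.46 and 18.79 in WT, against 1.35 and 1.67 in ZCCHC4 KO1, a 13.7-fold lower mean FPKM. The log2 fold change was -3.10 (SE 0.203, adjusted p = 0.00312 from limma). SERPINB8, which can block furin, was at 9.63 and 8.97 in WT, against 4.05 and 4.4 in ZCCHC4 KO1. It changed by a log2 value of -0.98 (SE 0.186, adjusted p = 0.0422 from limma), a call that was lost when WT replicate 1 (adjusted p = 0.374), WT replicate 2 (0.247) or ZCCHC4 KO1 replicate 1 (0.0698) was left out. The 20 tested genes nearest to SERPINB5, within 5.88 Mb, had a median of -0.58 on the log2 scale. Of these 20, 19 lay below 0 and 1 was called lower, namely SERPINB8.

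The 3 tested clade B serpins of the short arm of chromosome 6 did not pass the test. SERPINB1, an inhibitor of neutrophil elastase, was at 25.92 and 26.09 in WT, against 12.9 and 16.2 in ZCCHC4 KO1 (log2 fold change -0.80, SE 0.171, adjusted p = 0.0557 from limma). It passed with median-ratio scaling, quantile normalization and the GC trend removed, with adjusted p from 0.00782 to 0.0373. SERPINB6, the most abundant serpin in WT, was at 146.1 and 159.57 in WT, against 122.93 and 97.31 in ZCCHC4 KO1 (adjusted p = 0.15 from limma). Quantile normalization brought SERPINB6 below 0.05 (adjusted p = 0.0381 from limma), but median-ratio scaling (0.404) and removal of the GC trend (0.177) did not. In the opposite direction, SERPINB9, the inhibitor of granzyme B, was at 0.65 and 0.56 in WT, against 1.39 and 2.17 in ZCCHC4 KO1. Its log2 fold change of 0.78 had an adjusted p of 0.0909 from limma, which lay below 0.05 with median-ratio scaling (0.00621), quantile normalization (0.0123) and the GC trend removed (0.00801). The groups of all 3 genes did not overlap. SERPINB2, SERPINB7, SERPINB10, SERPINB11 and SERPINB12 stayed at or below 0.16.

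Among the serpins that regulate plasminogen activation, SERPINE2 fell. It encodes protease nexin 1, which blocks thrombin and urokinase, and was at 11.72 and 11.29 in WT, against 4.13 and 4.11 in ZCCHC4 KO1. The log2 fold change was -1.29 (SE 0.18, adjusted p = 0.0194 from limma), with an adjusted p of 0.0996 without WT replicate 1 and 0.0733 without WT replicate 2. SERPINI1, or neuroserpin, an inhibitor of tissue plasminogen activator, was at 2.87 and 2.05 in WT, against 0.61 and 1.05 in ZCCHC4 KO1 (log2 fold change -0.92, adjusted p = 0.0769 from limma), and its groups did not overlap. SERPINI1 passed with median-ratio scaling (adjusted p = 0.00332 from limma), quantile normalization (0.0243) and the GC trend removed (0.00974).

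SERPINH1, the collagen chaperone HSP47, is no protease inhibitor, and its values ran the other way. They were 84.23 and 93.41 in WT, against 127.21 and 101.86 in ZCCHC4 KO1 (log2 fold change 0.36, 95% interval -0.03 to 0.75, adjusted p = 0.254 from limma). SERPINH1 dominated the sum of the serpins outside clades A and B, which was 120.0 ± 5.49 in WT and 131.7 ± 16.8 in ZCCHC4 KO1 (SD, n = 2 each).

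Most serpins that liver secretes into plasma were below 1 FPKM in these libraries, in which markers of hepatocytes were also scarce. The values need not hold for HepG2 cells at large. SERPINA1, which encodes alpha-1-antitrypsin, was listed at 0 in both WT libraries and at 0.03 and 0 in ZCCHC4 KO1. SERPINA3 and SERPINA10 were at most 0.12, and SERPINC1, which encodes antithrombin, was at most 0.1. SERPIND1, or heparin cofactor II, did not exceed 0.05. SERPINF2, the plasmin inhibitor, was at 0.74 and 0.85 in WT, against 0.66 and 0.47 in ZCCHC4 KO1, and A2M was between 0.15 and 0.22. SERPING1, the C1 inhibitor, was at 0.34 and 0.54 in WT, against 0 and 0.03 in ZCCHC4 KO1. SERPINF1, which encodes the secreted factor PEDF, was at 0.91 and 0.57 in WT, against 1.27 and 0.98 in ZCCHC4 KO1, and was the one gene among those named here to reach an FPKM of 1 in a library.

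TIMP1 and TIMP3 fell among the metalloproteinase inhibitors. TIMP1, the highest of the 52 genes in WT, was at 268.53 and 286.09 in WT, against 130 and 107.92 in ZCCHC4 KO1, 2.33-fold lower in mean FPKM. The log2 fold change was -1.22 (SE 0.146, adjusted p = 0.0135 from limma), and the call held without each library in turn. TIMP1 had made up 20.3 and 20.8 percent of the summed FPKM of the 52 genes in WT and made up 12.2 and 11.7 percent in ZCCHC4 KO1. TIMP1 lies on the short arm of chromosome X, where all 20 nearest tested genes, within 1.02 Mb, were lower by sign, with a median log2 fold change of -0.78 and 8 called lower. SYN1, which holds TIMP1 on its opposite strand, was listed at no more than 0.03 in any library. The part of the chromosomal surroundings in the values of TIMP1 and SERPINB5 was not tested.

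TIMP3, the inhibitor bound to the extracellular matrix, was at 19.63 and 21.49 in WT, against 7.82 and 6.44 in ZCCHC4 KO1. Its log2 fold change was -1.41 (SE 0.181, adjusted p = 0.0153 from limma), and the call held without each library in turn. TIMP3 lies inside SYN3 on the opposite strand, and SYN3 was itself listed at 36.73 and 31.47 in WT, against 15.21 and 19.2 in ZCCHC4 KO1. Without strand, reads of the pair cannot be told apart where their exons overlap. TIMP2 was at 150.28 and 153.79 in WT, against 129.83 and 126.16 in ZCCHC4 KO1 (log2 fold change -0.25, 95% interval -0.54 to 0.05, adjusted p = 0.297 from limma). TIMP4 was at 3.01 and 4.92 in WT, against 2.18 and 1.38 in ZCCHC4 KO1 (adjusted p = 0.149 from limma). Median-ratio scaling (adjusted p = 0.026 from limma) and removal of the GC trend (0.0223) brought TIMP4 below 0.05, but quantile normalization (0.195) did not. Summed over the 4 TIMP genes, FPKM was 453.9 ± 17.6 in WT and 255.9 ± 19.7 in ZCCHC4 KO1 (SD, n = 2 each), a log2 ratio of -0.83. RECK, a membrane-anchored regulator of metalloproteinases, was at 8.16 and 5.78 in WT, against 3.14 and 3.76 in ZCCHC4 KO1 (log2 fold change -0.83, SE 0.232, adjusted p = 0.103 from limma). RECK passed with median-ratio scaling (adjusted p = 0.0276 from limma) and the GC trend removed (0.0292), but not with quantile normalization (0.0659).

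**Figure D3:**
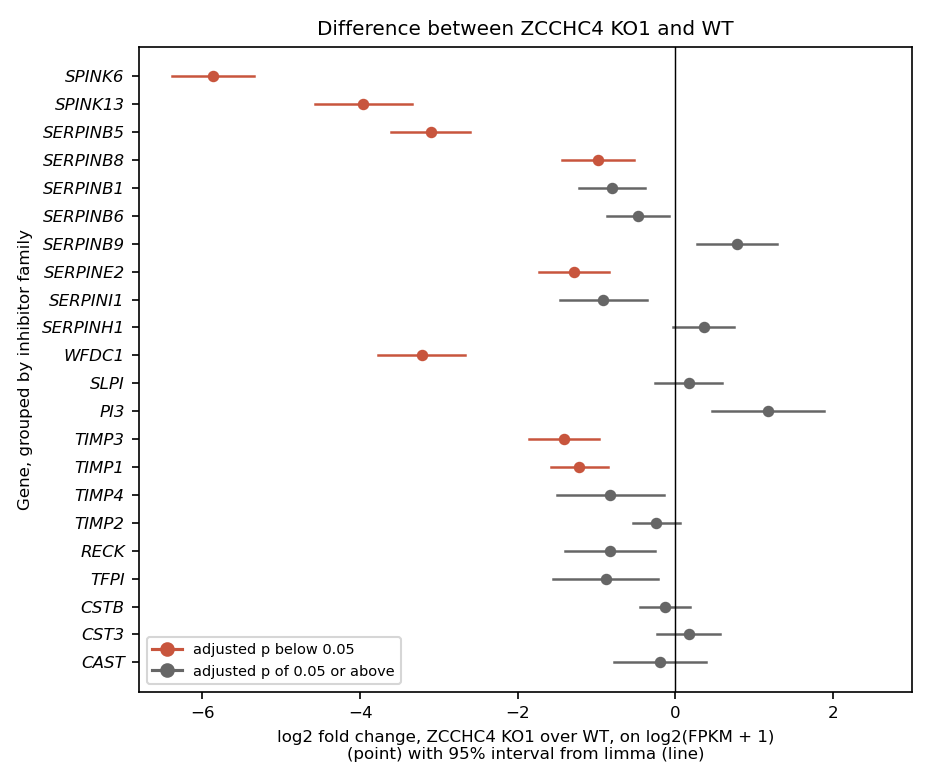
Log2 fold change of ZCCHC4 KO1 over WT on the log2(FPKM + 1) scale (horizontal axis) for 22 of the 23 tested protease inhibitor genes (vertical axis, by family), as points with 95% intervals from limma, red where the adjusted p is below 0.05. The 8 red genes are all below 0, and PI3 lies farthest above 0 at 1.17 without passing.

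The WAP group split between genes. WFDC1, a secreted protein also known as ps20, was at 9.93 and 11.81 in WT, against 0.45 and 0.11 in ZCCHC4 KO1. The log2 fold change was -3.22 (SE 0.225, adjusted p = 0.0039 from limma), and the call held without each library in turn. Of the 20 tested genes nearest to WFDC1 on chromosome 16, 9 were lower and 11 higher by sign, and 1 was called lower. SLPI, the secretory leukocyte protease inhibitor of mucosal surfaces, was at 125.16 and 142.47 in WT, against 171.59 and 131.82 in ZCCHC4 KO1. Its groups overlapped (log2 fold change 0.17, 95% interval -0.25 to 0.60, adjusted p = 0.624 from limma). PI3, or elafin, an elastase inhibitor encoded on chromosome 20 like SLPI, was at 1.9 and 3.28 in WT, against 8.41 and 5.67 in ZCCHC4 KO1, higher in both ZCCHC4 KO1 libraries than in both WT libraries. The log2 fold change of 1.17 did not pass (SE 0.288, adjusted p = 0.0786 from limma). It passed with median-ratio scaling (adjusted p = 0.000246), quantile normalization (0.0434) and the GC trend removed (0.00883). WFDC3, WFDC8 and WFDC12 stayed at or below 0.35. SLPI carried most of the summed FPKM of the group, which was 147.8 ± 14.5 in WT and 159.4 ± 30.1 in ZCCHC4 KO1 (SD, n = 2 each).

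Inhibitors of cysteine proteases showed no called gene. CSTB, or stefin B, which blocks cathepsins inside the cell, was at 172.93 and 168.67 in WT, against 162.99 and 147.96 in ZCCHC4 KO1 (log2 fold change -0.14, 95% interval -0.45 to 0.18, adjusted p = 0.596 from limma). CST3, the secreted cystatin C, was at 96.86 and 105.99 in WT, against 128.52 and 101.08 in ZCCHC4 KO1 (log2 fold change 0.17, 95% interval -0.23 to 0.57, adjusted p = 0.604 from limma). CAST, which encodes the calpain inhibitor calpastatin, was at 44.18 and 32.1 in WT, against 27.3 and 38.97 in ZCCHC4 KO1 (log2 fold change -0.20, 95% interval -0.78 to 0.38, adjusted p = 0.679 from limma). CSTA was at most 0.31 and CST7 at most 0.17.

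The Kunitz-type inhibitors were represented by TFPI, which shuts off the tissue factor pathway of clotting. TFPI was at 17.32 and 12.58 in WT, against 6 and 9.42 in ZCCHC4 KO1, so the groups did not overlap, but the difference did not pass (log2 fold change -0.89, SE 0.269, adjusted p = 0.124 from limma). It passed with median-ratio scaling (adjusted p = 0.0199 from limma) and the GC trend removed (0.0167), but not with quantile normalization (0.0551). SPINT2, an inhibitor of the activator of hepatocyte growth factor, was between 0.41 and 0.73, and SPINT1 was listed at 0 in WT, against 0.02 in both ZCCHC4 KO1 libraries. In all, 29 of the 52 genes were below the limit for testing, and 27 of these were under an FPKM of 1 in every library. The exceptions were SPINK1 and SERPINF1.

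**Figure D4:**
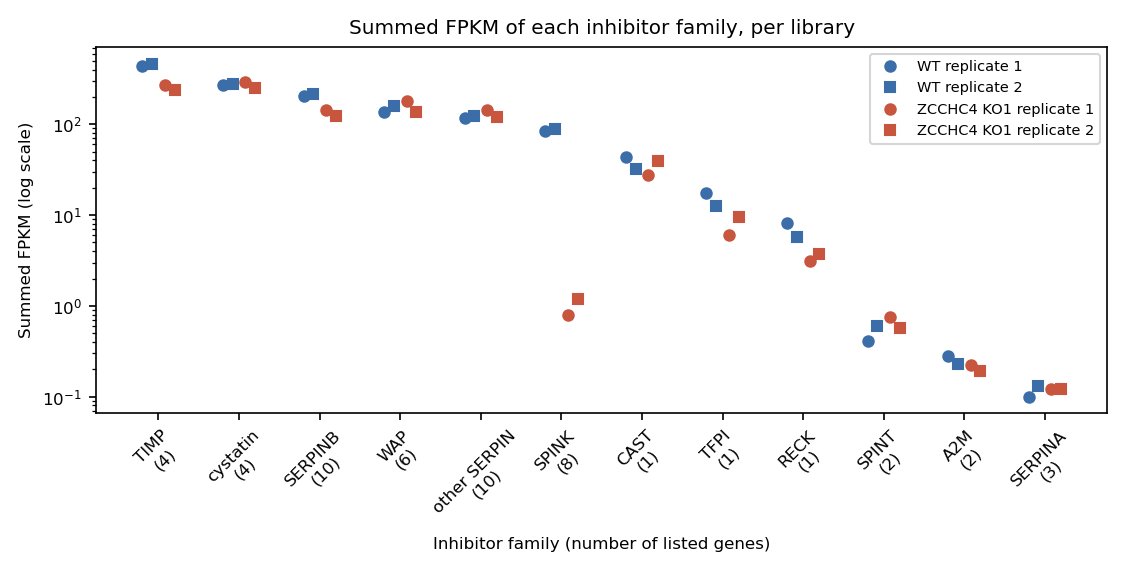
Summed FPKM of each inhibitor family per library (vertical axis, log scale), with WT in blue, ZCCHC4 KO1 in red, circles for replicate 1 and squares for replicate 2. The SPINK sums separate most, at 83.98 and 88.93 in WT, against 0.79 and 1.19 in ZCCHC4 KO1, whereas the cystatin sums overlap between 249.04 and 291.99.

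Taken by level, the order of the inhibitor genes changed between the groups. In WT the highest were TIMP1, CSTB, SERPINB6, TIMP2, SLPI, CST3, SERPINH1 and SPINK6. In ZCCHC4 KO1 the order ran CSTB, SLPI, TIMP2, TIMP1, CST3, SERPINH1 and SERPINB6. Within WT the ranges of SERPINB6 and TIMP2 overlapped, so their order is not resolved. Within ZCCHC4 KO1 those of CSTB and SLPI overlapped, as did those of TIMP2, TIMP1, CST3, SERPINH1 and SERPINB6 among themselves, except that TIMP2 lay above SERPINB6, so most of that order is not resolved. The 52 genes summed to 1324.76 and 1377.5 FPKM in WT, against 1067.26 and 925.13 in ZCCHC4 KO1, or 0.259 and 0.256 against 0.189 and 0.177 percent of all FPKM.

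Proteases and related factors, called target proteases below, were also read from the same fit. The name is that of the list, which also holds genes that are no proteases, such as the receptor PLAUR. Which of the listed genes these inhibitors act on was not tested. Of 107 genes on a hand-written list, 42 were tested, and 9 were called lower and 0 higher, beside 4.48 and 1.5 percent of all genes tested. The median log2 fold change of the 42 was -0.20, against -0.03 over all genes. At an unadjusted p under 0.05 there were 12 lower and 5 higher, beside 13.9 and 8.96 percent of all genes. PRSS56, a serine protease, was at 341.66 and 376.05 in WT, against 1.96 and 2.03 in ZCCHC4 KO1. FURIN, the convertase that SERPINB8 can block, was at 42.89 and 45.72 in WT, against 23.01 and 20.72 in ZCCHC4 KO1 (log2 fold change -0.99, adjusted p = 0.0203 from limma). PLAUR, the urokinase receptor, was at 40.75 and 40.25 in WT, against 22.6 and 19.03 in ZCCHC4 KO1 (log2 fold change -0.93, adjusted p = 0.028 from limma). The cathepsins CTSB, CTSF and CTSZ were called lower, with log2 fold changes of -0.99, -1.52 and -0.94, as were TMPRSS3, PRSS23 and HTRA1, with -1.14, -1.03 and -0.73. CTSL, CAPN1, CAPN2 and PLAT were not called, with log2 fold changes of -0.40, -0.20, -0.29 and -0.71. None of those higher by sign was called. HTRA3 was at 0.76 in log2 fold change, PROC at 0.60, MMP17 at 0.55 and MMP15 at 0.52. CTSH was at 0.52, CTSD at 0.40 and CAPN15 at 0.35. For these 7 of the 42 both ZCCHC4 KO1 libraries lay above both WT libraries, and for 18 they lay below. Such separation held for 23.1 and 28.5 percent of all genes tested. The 7 were named after their values were seen. PROC reached an FPKM of 1 only in ZCCHC4 KO1 libraries. Without WT replicate 1 the number called lower was 4 and without WT replicate 2 it was 2. With median-ratio scaling 10 were lower and 2 higher, beside 7.05 and 3.93 percent of all genes. Quantile normalization gave 9 lower and 2 higher, beside 6.72 and 4.34 percent. With the GC trend removed, 11 were lower and 0 higher, beside 12.7 and 7.35 percent.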

How the data were processed

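Total RNA of 2 WT and 2 ZCCHC4 KO1 libraries was sequenced. The supplementary methods name the BGISEQ-500 platform and the labels an Illumina HiSeq. Bowtie2 was used by the authors for alignment to GRCh38 and RSEM for quantification, and the deposited table gives FPKM for each library in a column of its own. Versions, annotation, strand setting and read filters are not given in the sources used here. FPKM carries no read totals, so the depth and the counting error cannot be given. All columns matched a sample title.

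Symbols and positions came from RefSeq (GRCh38.p14), which named 16384 of 16658 genes. GC content came from the longest GENCODE v44 transcript and covered 98.4 percent of the tested genes. Genes with an FPKM of at least 1 in at least 2 libraries were transformed to log2(FPKM + 1) and fitted in R 4.3.3 by limma 3.58.1 (lmFit, eBayes with trend, Benjamini-Hochberg adjustment, two-sided). The study names no test for this comparison. With 2 libraries a group an exact permutation test cannot go below 0.333. On simulated data for this comparison with 10726 genes, limma recovered 0 of 200 altered genes at a log2 change of 1, 181 at 2 and 199 at 4, at an adjusted p below 0.05. Fewer genes were altered there than were called in the data (480 lower and 161 higher), which makes the adjustment stricter. Smaller changes were called in the data, such as HTRA1 at -0.73, so these recoveries do not carry over to it. By the rule every tested inhibitor gene may be named, but 1 is not reported here and is left out of the figures, while the counts and family sums include it. The members, lists, motifs and tests were chosen with earlier results of these data known. Settings varied were the pseudocount (0.1), the filter (none, or 5 FPKM), median-ratio scaling, quantile normalization, removal of the GC trend (natural spline, 4 degrees of freedom), no trend in eBayes, the replicate number as a block, stricter call rules and leaving out each library.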

Additional observations from a re-analysis of the deposited data

How the results depend on the processing

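Against 8 inhibitor genes lower and 0 higher, 13 were lower and 2 higher with median-ratio scaling and with the GC trend removed, 2 were higher with quantile normalization, and 1 was lower under the thresholds of the study (adjusted p below 0.001 with a 2-fold change or more). Target proteases called lower numbered 9, against 4 with a 2-fold limit and 1 under the study's thresholds, and those called higher numbered 0, against 2 under median-ratio scaling and 2 under quantile normalization. Over all genes, 480 lower and 161 higher became 262 and 82 with no filter, 756 and 421 under median-ratio scaling, 721 and 466 after quantile normalization, 1342 and 776 once the GC trend was removed and 6 and 2 under the study's thresholds, and 100 were higher with a 2-fold limit. Leaving out 1 library gave 6 to 11 inhibitor genes lower and 0 to 1 higher, 2 to 9 target proteases lower and 0 to 1 higher, and 273 to 1037 genes lower and 97 to 558 higher. The single library left in a group was then assumed to vary like the other group. Over all genes and among the inhibitor genes, the lowest count of lower calls came without WT replicate 1 and the highest without ZCCHC4 KO1 replicate 2, and among target proteases the lowest came without WT replicate 2. ZCCHC4, at -1.48 in the log2 fold change, lost its call with a pseudocount of 0.1 (-1.92, adjusted p = 0.0551 from limma), with no filter (adjusted p = 0.115) and under the study's thresholds (-1.48), and ranged from -1.81 to -1.15 without 1 library. The sign reversed for CAST when WT replicate 1 (0.023) or ZCCHC4 KO1 replicate 1 (0.0477) was left out, within a range from -0.45 to 0.0477, and when ZCCHC4 KO1 replicate 1 was left out for CST3 (-0.00343, with a highest value of 0.34) and SLPI (-0.0185, with a highest value of 0.359), none of them called. The fits also differed in the prior degrees of freedom of limma. A higher value draws the variance of each gene closer to a trend shared by all genes. It was 3.78 in the main fit, 5.55 for GC-corrected values, 7.05 for quantile-normalized values and 72.43 for FPKM rescaled by median ratios. What caused the shifts between settings was not tested, nor was the part of these degrees of freedom in them.

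Same-numbered libraries share only a number, and the differences within the groups were correlated across genes at a Pearson coefficient of -0.787. With the replicate number as a block, 7 inhibitor genes, 8 target proteases and 355 genes in all were lower and 107 were higher, with SERPINB8 lost (adjusted p = 0.194 from limma). With the crossed pairing, added after the data were seen, 16 inhibitor genes were lower and 3 higher, 17 and 7 target proteases, and 2986 and 2309 genes in all. Prior degrees of freedom were infinite under both pairings. No log2 ratio of a family sum moved beyond the spread between libraries under another scaling. SPINK6, SPINK13, SERPINB5, WFDC1, TIMP1 and TIMP3 kept their calls at an adjusted p of 0.05 under every alternative fit.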
